A study of Homo sapiens with 11 samples.

Results

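The arrays described here are the 3 on which 1 RUNX gene was targeted by a short hairpin RNA (shRNA), named shRx1, shRx2 and shRx3 in the sample titles, and the luciferase control array shLuc. They are 4 of the 11 arrays of the series and were chosen by those titles. All 4 came from MV4-11, an established human acute myeloid leukaemia line with a KMT2A rearrangement, transduced with the named shRNA and then exposed to 3 µM doxycycline over 24 hours. The luciferase shRNA has no target in human cells, and the control shares the transduction and the doxycycline. Each condition had 1 array, so no single-array difference below has a replicate check. The other arrays used for reference are the 4 with combinations of these shRNAs (shRx1+shRx2, shRx1+shRx3, shRx2+shRx3 and all 3 together), under the same doxycycline treatment, and a DMSO array from cells kept for 6 hours, for which the labels name no shRNA. The other 2 arrays are of cells given the compounds Chb-M' or Chb-50, each at 1 µM for 6 hours. They enter only the level filter and the range over all arrays. The labels do not say whether the transductions were separate, or which sequences the shRNAs had. The series set out to see how expression changes when RUNX genes are knocked down, and the single knockdowns show which genes differed from the control whichever member was targeted.

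RUNX1, RUNX2 and RUNX3 are transcription factors that share a Runt DNA-binding domain and bind DNA together with the partner CBFB. They recognise the same short motif, TGTGGT, which reads ACCACA on the other strand. In blood, RUNX1 is needed for the emergence of stem cells and for myeloid and megakaryocyte maturation, RUNX3 acts in lymphoid and myeloid cells, and RUNX2 is best known from bone. RUNX genes are also known to regulate one another through their distal promoters.

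The letters of that motif were searched on both strands in the RefSeq promoter table (GRCh38.p14, 250 bases before to 50 after each start), and 4591 of 35116 promoters held it, 13.1%. The following stretches show, among the targeted genes, where it occurs as a close pair, with each motif in capitals, 5′ to 3′ along the gene.
RUNX3: cctcaACCACAgaACCACAaggcca
RUNX2: aaacaACCACAgaACCACAagtgcg
The RUNX3 stretch lies at chr1:24965122-24965146 on the minus strand, ahead of the transcript start that the table uses, although the gene's outermost annotated end lies within the stretch. The RUNX2 stretch lies at chr6:45328341-45328365 on the plus strand, 12 to 36 bases after the start that the table uses. Such a pair, 2 copies on 1 strand with 2 bases of any kind between them, was found in 4 of the 35116 promoters (0.0114%), RUNX2 and RUNX3 among them. The table holds 1 further window each for RUNX2 and RUNX3 and 1 for RUNX1, and these 3 have no copy of the motif. The RUNX1 window lies inside the gene's span, so its distal promoter was not searched. The RUNX2 window with the pair holds further copies upstream, in capitals in the stretch chr6:45328127-45328260 on the plus strand.
RUNX2, upstream: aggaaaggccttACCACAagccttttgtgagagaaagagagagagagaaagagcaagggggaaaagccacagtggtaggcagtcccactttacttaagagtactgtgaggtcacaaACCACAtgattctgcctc
These stretches were picked after the promoters had been read. A match of letters is not evidence of binding.

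Each targeted gene lay below the control on the array that carries its own shRNA, by less than 1.5-fold. RUNX2 read 6.14 on shLuc, 6.30 on shRx1, 5.72 on shRx2 and 6.00 on shRx3 (log2 level). It was lowest on the array that carries its shRNA, at 74.6% of shLuc. RUNX3 read 8.15 on shLuc, 7.70 on shRx1, 8.24 on shRx2 and 7.76 on shRx3. The shRx3 array was at 76.5% of shLuc, and shRx1, whose label names no RUNX3 shRNA, was at 73.4%. RUNX1 was measured by a cluster (a set of probes read together) that is listed for LOC100506403 too, and it read 4.30, 4.12, 4.45 and 4.20 on shLuc, shRx1, shRx2 and shRx3. The shRx1 value is 88.1% of shLuc, and the cluster is a weak check of RUNX1 itself. CBFB read 9.31, 9.47, 9.35 and 9.28 in the same order. None of these genes differed from shLuc by 1.5-fold on a single knockdown, and with 1 array each these values have no test.

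**Figure D1:**
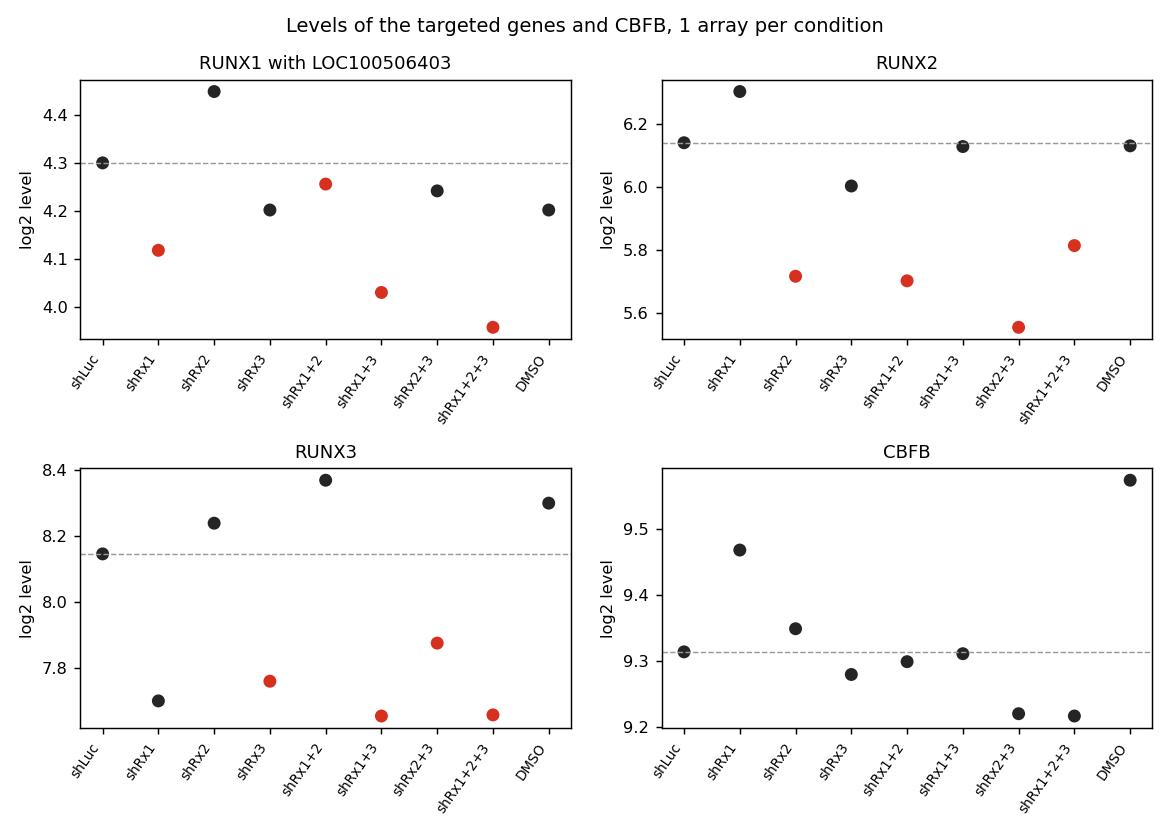
Log2 level of the 3 targeted genes and CBFB on the 8 shRNA arrays, shLuc among them, and DMSO. Each point is 1 array, and the axes do not start at 0. Red points carry an shRNA against the gene plotted and the dashed line is shLuc. RUNX2 is at 5.72 on shRx2 and RUNX3 at 7.76 on shRx3, while RUNX3 is also low, 7.70, on shRx1.

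The deposited log2 levels covered 12327 genes above the level filter of 3.78 on at least 1 of the 11 arrays, and the array medians lay between 5.83 and 5.88. All 10 myeloid leukaemia markers reached the filter and had a median highest level of 8.33, while 2 of 9 lymphoid and 5 of 8 erythroid and megakaryocyte markers reached it (median highest level 3.33 and 3.91). A gene is said to have moved when its log2 level differed from shLuc by at least 0.585, that is 1.5-fold. This happened for 286 genes on shRx1 (2.32% of those tested), 180 on shRx2 (1.46%) and 190 on shRx3 (1.54%). On shRx1 135 lay higher (1.1%) and 151 lower (1.22%), on shRx2 95 higher (0.771%) and 85 lower (0.69%), and on shRx3 84 higher (0.681%) and 106 lower (0.86%). In all, 517 genes (4.19%) moved on at least 1 array. The differences had an SD over genes of 0.22 on shRx1, 0.20 on shRx2 and 0.20 on shRx3. At 2-fold the counts were 24, 23 and 28.

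The same direction on all 3 single knockdowns was seen for 27 genes, 14 higher (0.114% of those tested) and 13 lower (0.105%). Another 132 moved on 1 array and stayed within 1.2-fold of shLuc on the other 2. Of the rest, 274 moved on 1 array with another between 1.2-fold and 1.5-fold, 82 moved on exactly 2 arrays in 1 direction, and 2 moved in opposite directions. All 3 differences of a gene use the same shLuc array, so a reading of shLuc that is low or high enters each of them.

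Of the 27 genes, 10 are protein-coding, 8 higher and 2 lower. The higher ones are FBP1, CD38, SEMA6B, ZNF528, RAB3A, STEEP1, LCE3B and IGSF8, and the lower ones RACGAP1 and RASA4B. The other 17 (63.0% of the 27, against 13.5% of all genes tested) are 7 miRNA hairpins, 3 copies of 5S ribosomal RNA, 2 small nucleolar RNAs, 3 other small RNAs or copies, 1 pseudogene and 1 immunoglobulin segment. Levels at or above the filter on all 4 arrays were found for 9 of the 27, and 5 of the 13 lower genes reached it on shLuc alone of all 11 arrays.

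FBP1 encodes fructose-1,6-bisphosphatase, a rate-limiting enzyme of gluconeogenesis. It read 5.23 on shLuc, 6.42 on shRx1, 6.14 on shRx2 and 6.03 on shRx3. All 3 single knockdowns lay above the control, by a mean of 0.96 ± 0.20 (SD, n = 3 arrays), or 1.95-fold. The combination arrays read 6.43 (shRx1+shRx2), 6.71 (shRx1+shRx3), 5.86 (shRx2+shRx3) and 6.63 (all 3 shRNAs), and DMSO read 6.73. The shLuc array was the lowest of the 11 arrays for this gene, and the single knockdowns lay below DMSO.

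CD38 is an ectoenzyme that consumes NAD and a surface marker of maturing and activated leukocytes. Its level was 3.70 on shLuc, 4.99 on shRx1, 4.46 on shRx2 and 4.58 on shRx3. The mean difference was 0.98 ± 0.28 (SD, n = 3), largest on shRx1. On the combinations it read 4.48 (shRx1+shRx2), 5.73 (shRx1+shRx3), 4.19 (shRx2+shRx3) and 5.34 (all 3), and DMSO read 4.32. DMSO lay below every single knockdown here and above shLuc.

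SEMA6B, a transmembrane semaphorin that signals through plexins, read 4.98 on shLuc, 5.65 on shRx1, 6.02 on shRx2 and 6.18 on shRx3. The mean difference was 0.97 ± 0.27 (SD, n = 3). The combinations read 6.33, 6.74, 5.84 and 6.63 in the same order as for CD38, and DMSO 5.97. The DMSO level lay inside the range of the single knockdowns.

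The other 5 higher protein-coding genes had mean differences between 0.60 and 0.81. RAB3A, a small GTPase of regulated exocytosis, read 4.32 on shLuc and 4.95, 4.96 and 4.95 on shRx1, shRx2 and shRx3, with DMSO at 4.68. Its 3 differences lay within 0.01 of each other and the combinations were lower, at 4.62 to 4.89. STEEP1, needed for the exit of the innate immune adaptor STING from the endoplasmic reticulum, read 2.73 on shLuc. It read 3.36, 3.38 and 3.39 on the single knockdowns, below the filter on all 4 arrays, and DMSO lay above all of them at 3.51. STEEP1 passed the filter only through the Chb-M' (3.98) and Chb-50 (3.84) arrays. ZNF528, a KRAB zinc finger protein, read 2.80 on shLuc and 3.62, 3.52 and 3.69, also below the filter, and DMSO was again above them at 3.85. Against DMSO the direction of STEEP1 and ZNF528 is therefore turned, with mean differences of -0.13 and -0.24. IGSF8, an immunoglobulin-like membrane protein that binds tetraspanins, read 3.43 on shLuc and 4.02, 4.05 and 4.02, with DMSO at 4.03. LCE3B, a cornified envelope protein of the epidermis and 1 of a family of close copies, read 4.76 on shLuc and 5.56, 5.38 and 5.39, with DMSO at 4.86. LCE3B was the member of this group whose DMSO level lay nearest to shLuc.

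RACGAP1, the GTPase-activating subunit of the centralspindlin complex that drives cytokinesis, read 4.46 on shLuc, 3.53 on shRx1, 3.41 on shRx2 and 3.54 on shRx3. The mean difference was -0.96 ± 0.07 (SD, n = 3). The combinations read 3.44, 3.04, 3.49 and 3.19 and DMSO 3.33, so shLuc was the highest of the 11 arrays and the 1 array above the filter. RASA4B, a Ras GTPase-activating protein with a near-identical copy in the genome, read 5.18 on shLuc, 4.55 on shRx1, 4.59 on shRx2 and 4.08 on shRx3. On the combinations it read 5.34, 5.19, 5.30 and 5.15, all near shLuc, and on DMSO 4.85. Its single knockdown levels were thus below those of every combination array, and probes shared with the copy could mix their readings.

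Among the small RNAs, which were named after their values were seen, the hairpins of MIR15B and MIR29C are best known. The miR-15 family represses cyclins and the anti-apoptotic factor BCL2, and the miR-29 family represses DNA methyltransferases and collagens. Their mature arms are shown with the seed, bases 2 to 8, in capitals, because the seed sets which transcripts an arm pairs with.
miR-15b-5p: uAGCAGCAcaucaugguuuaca
miR-15b-3p: cGAAUCAUuauuugcugcucua
miR-29c-3p: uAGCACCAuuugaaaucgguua
miR-29c-5p: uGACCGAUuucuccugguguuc
All 7 hairpins matched RefSeq entries, and their 11 mature arms had 11 different seeds, so no seed was shared. The array reads the hairpin locus and not the mature arm. MIR15B read 4.02 on shLuc, 3.14 on shRx1, 3.32 on shRx2 and 3.21 on shRx3, and it lies within the span of SMC4 in RefSeq. MIR29C read 3.87 on shLuc, 3.20 on shRx1, 3.07 on shRx2 and 3.13 on shRx3, but 3.93 on shRx2+shRx3. MIR15B reached the filter on shLuc alone, and MIR29C on shLuc and shRx2+shRx3. The larger differences belonged to other small RNAs. MIR4668 read 4.83 on shLuc and 3.36, 3.28 and 3.16 on the single knockdowns. SNORA38B, a small nucleolar RNA, read 7.85 on shLuc and 9.21, 9.10 and 9.31, while shRx1+shRx2 was at 7.76, shRx1+shRx3 at 6.85 and DMSO at 7.32. SNORA22 read 8.63 on shLuc and 9.44, 9.48 and 9.44, with DMSO at 7.55. These snoRNAs are the 2 higher genes for which shLuc was not the lowest array.

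**Figure D2:**
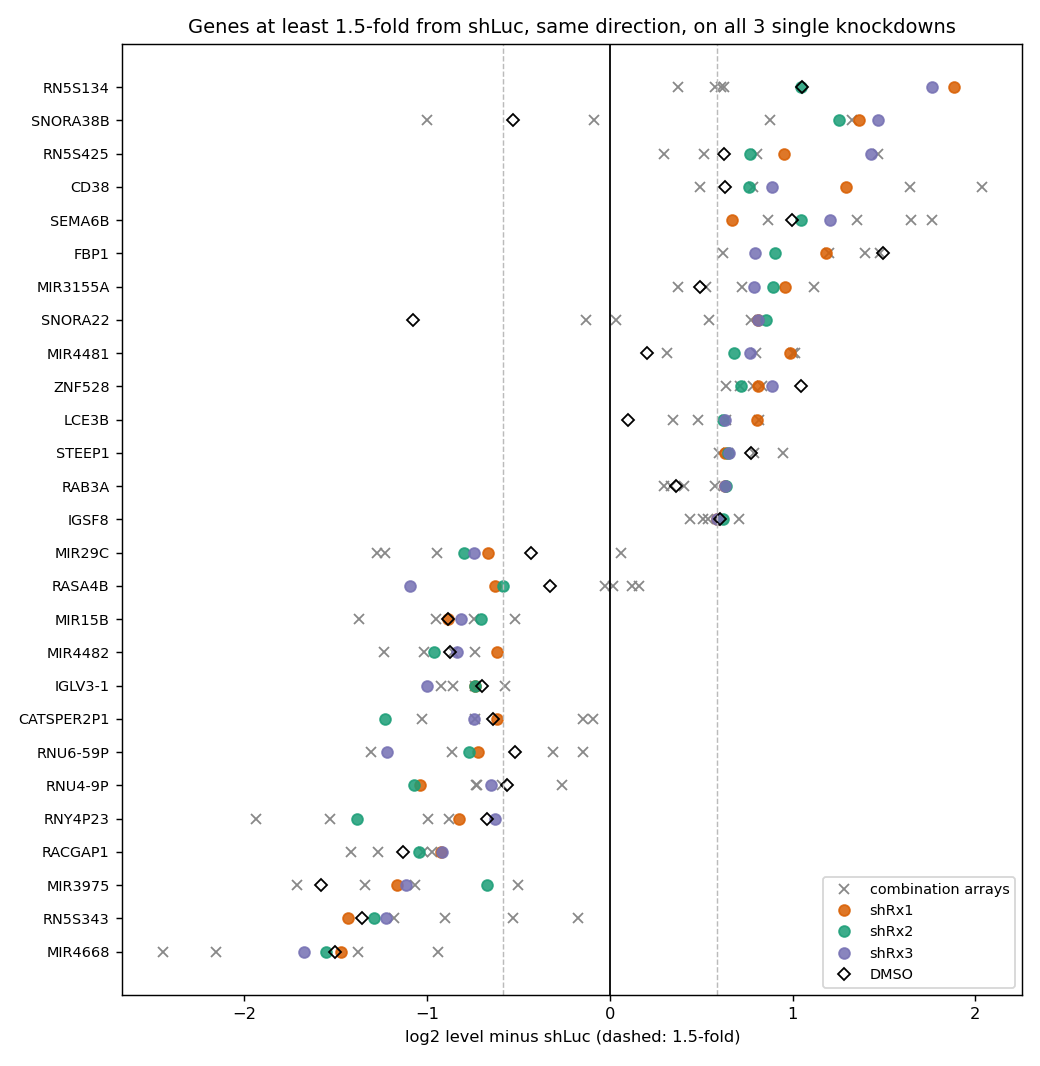
Log2 level minus shLuc for the 27 genes that moved in the same direction on all 3 single knockdowns, 1 row per gene and 1 mark per array, with shLuc at 0 and dashed lines at 1.5-fold. DMSO lies on the same side of shLuc as the single knockdowns for 25 of 27 genes, which were chosen by the shLuc reading itself. The exceptions are SNORA38B and SNORA22, and RASA4B stands out by combination arrays that lie near 0.

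Where shLuc lay among the other arrays was then read off for the 27 genes, as a description. The shLuc array was below all 4 combination arrays for 12 of the 14 higher genes (22.8% of all genes tested) and above all 4 for 11 of the 13 lower genes (21.7%). Against DMSO, shLuc was lower for 12 of 14 (47.1% of all genes) and higher for 13 of 13 (51.1%). Over all 11 arrays shLuc was lowest for 12 of the 14 (8.36% of all genes) and highest for 10 of the 13 (8.49%). The rule itself put shLuc beyond the 3 single knockdowns. It chose genes by the shLuc reading, which enters the counts on the combination arrays and DMSO too. The shares of all genes are therefore no baseline for these counts. For the 5 lower genes that reached the filter on shLuc alone, shLuc above every other array was fixed in advance. Nothing is read from any of these counts. The combination arrays carry the same shRNAs, and the DMSO array differs from shLuc in time and transduction. Thus a shared effect of the shRNAs and the reading of this 1 control array cannot be told apart from these arrays.

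The common shift, shLuc against the 3 single knockdowns taken as 1 group, was fitted with limma on 2 residual degrees of freedom. It called 0 of 12327 genes (0% at an adjusted p under 0.05), with 793 at an unadjusted p under 0.05, and its smallest adjusted p was 0.761. The rule for the 27 genes used the same contrast, so their shifts are given as a description. RACGAP1 had a shift of -0.96 (SE 0.0868), RAB3A 0.63 (SE 0.0613) and STEEP1 0.64 (SE 0.0622), each with a limma adjusted p of 0.761. FBP1 had 0.96 (SE 0.180) and CD38 0.98 (SE 0.241). The fit assumes that shLuc varies like the other arrays, and nothing tests that.

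Genes just outside the all-array rule were similar in size. Just inside lay IGSF8, with a smallest difference of 0.59, LCE3B with 0.62, and RASA4B with -0.59. Just outside lay HLA-DRA, the alpha chain of the MHC class II molecule HLA-DR, which read 0.85 above shLuc on shRx1, 0.86 on shRx2 and 0.52 on shRx3, and MAP1LC3B2 and C1QTNF8 with 0.52 each. Among lower genes CD164L2, TMEM115 and SMIM10L2A had smallest differences of -0.55, -0.54 and -0.53. The promoter table held 6 of the 10 protein-coding genes (CD38, FBP1, IGSF8, LCE3B, RAB3A and ZNF528), and 0 of these 6 promoters had the motif, against the 13.1% of all promoters given above. This says only that those letters are not in the 300-base windows.

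On shRx1 alone, 73 genes moved, 25 higher (0.203%) and 48 lower (0.389%), of which 48 are protein-coding. PTX4, a member of the pentraxin family, stood far out, with 5.60 on shRx1 against 3.09 on shLuc, 3.23 on shRx2 and 3.08 on shRx3. The combinations that carry shRx1 were at 3.55, 3.26 and 3.22, so this level was seen on the shRx1 array alone. PTX4 passed the filter only through that array. SGF29, the subunit of the SAGA complex that reads methylated histone H3, read 8.48 on shLuc, 9.40 on shRx1, 8.43 on shRx2 and 8.32 on shRx3, and 8.28 to 8.52 on the combinations. MCOLN2, a lysosomal cation channel, read 4.22 on shLuc and 4.99 on shRx1, and it was also high on shRx1+shRx3 (5.08) and on all 3 shRNAs (5.11) but 4.22 on shRx1+shRx2. The growth factor FGF17, the cullin-3 adaptor KLHL15, the zinc finger protein ZNF804A, the lipoprotein lipase carrier GPIHBP1 and the interferon gene IFNA14, which belongs to a family of close copies, lay 0.69 to 0.72 above shLuc.

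Genes lower on shRx1 alone were led by ZNF737, a KRAB zinc finger gene, at 3.40 against 4.76 on shLuc, 4.64 on shRx2 and 4.87 on shRx3. The receptor tyrosine kinase KIT, a marker of immature myeloid cells, read 5.00 on shLuc, 4.21 on shRx1, 4.90 on shRx2 and 4.95 on shRx3. The combinations read 4.62, 4.59, 4.26 and 4.36, and KIT was lowest there on shRx2+shRx3, the combination without shRx1, while DMSO read 7.14. KIT was thus lower than on DMSO on all 8 shRNA arrays, the shLuc control among them. CST7, the cysteine protease inhibitor cystatin F of immune cells, read 7.02 on shLuc and 6.14 on shRx1, and the organic anion transporter SLCO4C1 5.53 and 4.60. PSORS1C2, FBXL13, BEND6 and SUMO4 lay 0.75 to 0.95 lower. UHRF1, which guides maintenance DNA methylation at replication, read 9.07 on shLuc, 8.40 on shRx1, 8.86 on shRx2 and 8.98 on shRx3. It read 8.70, 8.13 and 8.31 on the combinations with shRx1 and 8.97 on shRx2+shRx3, below which all 3 carriers lay. This order was not particular to UHRF1. The list of 28 S phase genes that holds it had median differences from shLuc of -0.44, -1.06 and -0.89 on those combinations. On shRx2+shRx3 the median was -0.06.

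On shRx2 alone, 26 genes moved, 14 higher (0.114%) and 12 lower (0.0973%). The retinal riboflavin-binding family member RTBDN read 2.89 on shLuc, 2.92 on shRx1, 3.94 on shRx2 and 2.94 on shRx3. It stayed at 2.98 to 3.11 on the combinations, and it passed the filter only through the shRx2 array. DNASE2, the lysosomal nuclease that clears DNA, read 4.29 on shLuc, 4.49 on shRx1, 5.10 on shRx2 and 4.26 on shRx3. On the combinations it was 5.17, 5.35, 4.28 and 5.49, so shRx1+shRx3, without the RUNX2 shRNA, was as high and shRx2+shRx3 was not. MAP4K1, a haematopoietic kinase that restrains antigen receptor signals, read 5.24 on shLuc and 5.93 on shRx2, and thromboxane synthase TBXAS1 4.42 and 5.08. TBXAS1 was highest on shRx1+shRx2, at 5.41. The sarcomere protein MYOM1, the amino acid transporter SLC43A2, ANGPTL6 and CSH2, which has near-identical copies, completed the 8 highest named genes. CSH2, like RTBDN, passed the filter only through the shRx2 array. Among the lower ones, DEPDC1, which is expressed in dividing cells, read 7.30 on shLuc, 7.47 on shRx1, 6.57 on shRx2 and 7.29 on shRx3. DEPDC1 was also lower than shLuc on every combination array, including shRx1+shRx3 (6.49). PDIA3 was named by the rule at levels under the filter on all 4 arrays, 2.78 on shLuc and 2.07 on shRx2. The others named are GXYLT2, which was under the filter on all 4 arrays too, AJM1 and ZNF432.

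On shRx3 alone, 33 genes moved, 15 higher (0.122%) and 18 lower (0.146%). PEAK3, a pseudokinase that acts as a signalling scaffold in myeloid cells, read 5.79 on shLuc, 5.98 on shRx1, 5.96 on shRx2 and 6.67 on shRx3. The combinations with shRx3 read 6.93, 6.60 and 7.26, shRx1+shRx2 read 5.85 and DMSO 5.73. Every array with the RUNX3 shRNA was thus above every other array plotted. PTPN14, a phosphatase of the Hippo pathway, read 6.04 on shLuc, 6.18 on shRx1, 5.92 on shRx2 and 5.12 on shRx3. Its combinations with shRx3 read 5.50, 5.60 and 5.68, against 6.32 on shRx1+shRx2 and 5.64 on DMSO. SLC39A9, a zinc transporter, read 8.33 on shLuc, 8.41 on shRx1, 8.45 on shRx2 and 7.64 on shRx3, then 7.89, 7.46 and 7.77 on the combinations with shRx3 and 8.36 on shRx1+shRx2. DMSO, too, was at 8.33, so the 4 arrays with shRx3 stood below all others named here. DUSP10, a phosphatase of stress kinases, read 6.47 on shLuc and 5.65 on shRx3, and 6.24, 5.95 and 6.15 with shRx3 against 6.50 without it on the combinations. The tubulin folding cofactor TBCA read 4.41 on shLuc and 3.76 on shRx3, and 4.12, 3.82 and 3.90 with shRx3 against 4.23 without it. The others named among the higher are MYT1, ZNF28, the protease CTSE, LLCFC1, PCP4L1, VIT and the ubiquitin-conjugating enzyme UBE2E2. Those among the lower are ZNF436, CRYGS, ZSCAN30 and ZKSCAN3. LLCFC1 passed the filter only through the shRx3 array, and CTSE was under it on shLuc and all single knockdowns.

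The combination arrays measure the same shRNAs on arrays the rule did not use. The rule was nevertheless set with earlier results of PEAK3 and SLC39A9 with the RUNX3 shRNA known. For each shRNA, the mean of the 3 combinations that carry it was set against the 1 that lacks it. The 3 contrasts share the same 4 arrays. Of the 48 genes lower on shRx1 alone, 22 were lower on its carriers (46.8% of all genes were) and 5 by at least 1.5-fold (2.61% of all genes). Of the 25 higher on shRx1 alone, 13 were higher on its carriers (53.1% of all genes) and 1 by 1.5-fold (1.65%). All 3 carriers lay beyond the lacking array for 7 of these 25 (32.4% of all genes) and for 13 of the 48 (28.3%). For shRx2 the counts were 9 of 14 higher (49.1%) and 5 of 12 lower (50.8%), with 0 at 1.5-fold (1.57% and 0.544% of all genes). All 3 carriers of shRx2 lay beyond the lacking array for 2 of the 14 (24.1%) and 2 of the 12 (24.5%). For shRx3, 7 of 15 higher genes (50.7%) and 12 of 18 lower genes (49.2%) lay the same way. At 1.5-fold, 1 of the 15 (0.43%) and 3 of the 18 (0.852%) did so, and all 3 carriers lay beyond the lacking array for 2 of the 15 (21.8%) and 9 of the 18 (21.1%). In all, 68 of the 132 genes kept their direction on the combinations and 10 did so at 1.5-fold.

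Those 10, chosen by their values, are LSP1 (0.60), SLCO4C1 (-0.59), UHRF1 (-0.59), SPCS2 (-0.69), SNORD1B (-1.05) and LCT-AS1 (-1.38) for shRx1, and PEAK3 (1.08), PTPN14 (-0.73), SLC39A9 (-0.66) and the pseudogene LDC1P (-0.68) for shRx3, as log2 differences on the combination arrays. LSP1 is an actin-binding protein of leukocytes and SPCS2 a subunit of the signal peptidase. PEAK3 had an SE of 0.29, PTPN14 of 0.11 and SLC39A9 of 0.21 in the limma fit. Limma called 0 of 12327 genes (0%) in each of these contrasts, with 1512 genes at an unadjusted p under 0.05 for shRx1, 480 for shRx2 and 553 for shRx3. The smallest adjusted p was 0.387 for shRx1, 0.962 for shRx2 and 1 for shRx3. In each contrast the lacking group is 1 array, assumed to vary like the others.

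**Figure D3:**
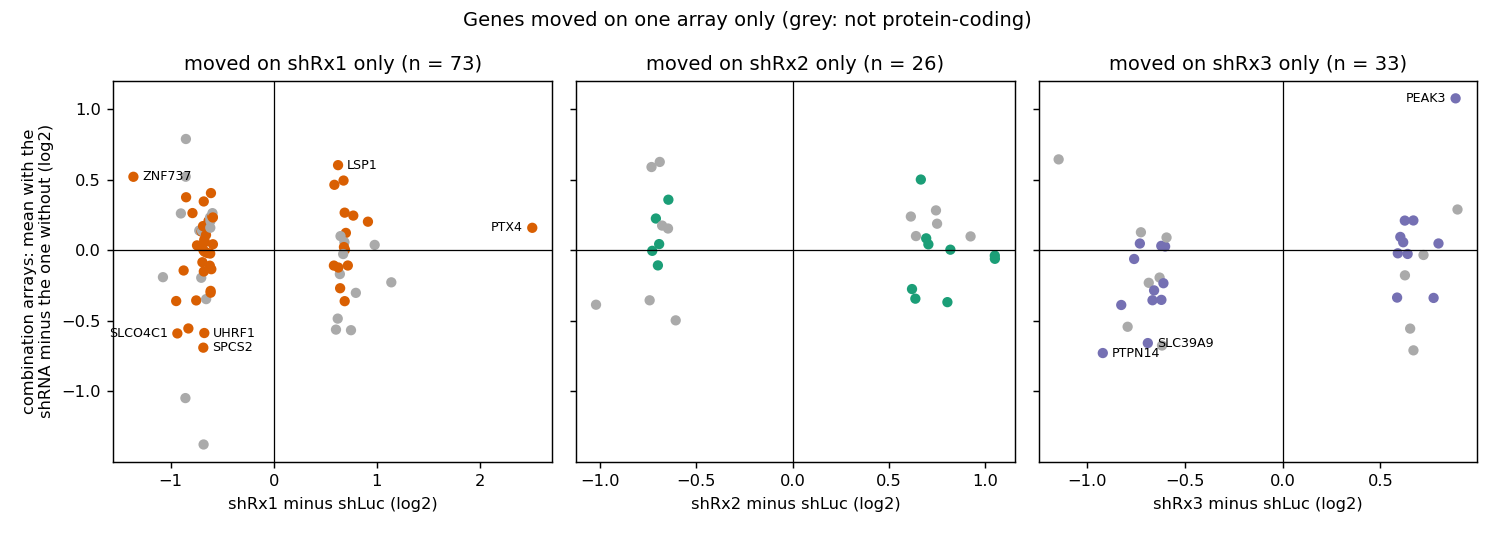
Genes that moved on 1 single knockdown only, 1 panel per shRNA, with the log2 difference from shLuc on that array on the x axis and, on the y axis, the log2 difference on the combination arrays between the mean of the 3 with the shRNA and the 1 without it. Coloured points are protein-coding and grey points are not. PEAK3 (1.08) and PTPN14 (-0.73) keep their direction in the shRx3 panel, while PTX4 lies near 0 on the y axis (0.16).

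Some of the largest single-array differences fell in neither set. Across the 3 arrays 59 genes reached 2-fold on at least 1, of which 23 are protein-coding. ANKFN1, a gene with ankyrin repeats and a fibronectin domain, read 7.91 on shLuc, 8.33 on shRx1, 5.23 on shRx2 and 4.61 on shRx3. On the combinations it read 7.62 on shRx1+shRx2 and 4.63, 4.23 and 4.42 on shRx1+shRx3, shRx2+shRx3 and all 3, with DMSO at 4.91. ANKFN1 was therefore high on shLuc, shRx1 and shRx1+shRx2 and low on the rest. Every array with shRx3 lay below every shRNA array without it, but shRx2 (5.23) and DMSO (4.91) were low as well. TSC2, the GTPase-activating partner of TSC1 that restrains mTORC1, had a like order, 8.04, 8.23, 7.23 and 6.87 on the same first 4 arrays and 7.68 on shRx1+shRx2. It read 6.97, 6.74 and 6.90 on the other combinations and 6.57 on DMSO. C8G, a chain of complement component C8, read 4.77 on shLuc, 5.42 on shRx1, 4.08 on shRx2, 3.97 on shRx3 and 5.12 on shRx1+shRx2. TSC2 and C8G were set beside ANKFN1 after their values were seen. ALDH3B2, an aldehyde dehydrogenase, read 4.85 on shLuc, 6.04 on shRx1, 6.53 on shRx2 and 4.45 on shRx3, but 4.13 on shRx1+shRx2, which carries both of the shRNAs whose single arrays were high.

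**Figure D4:**
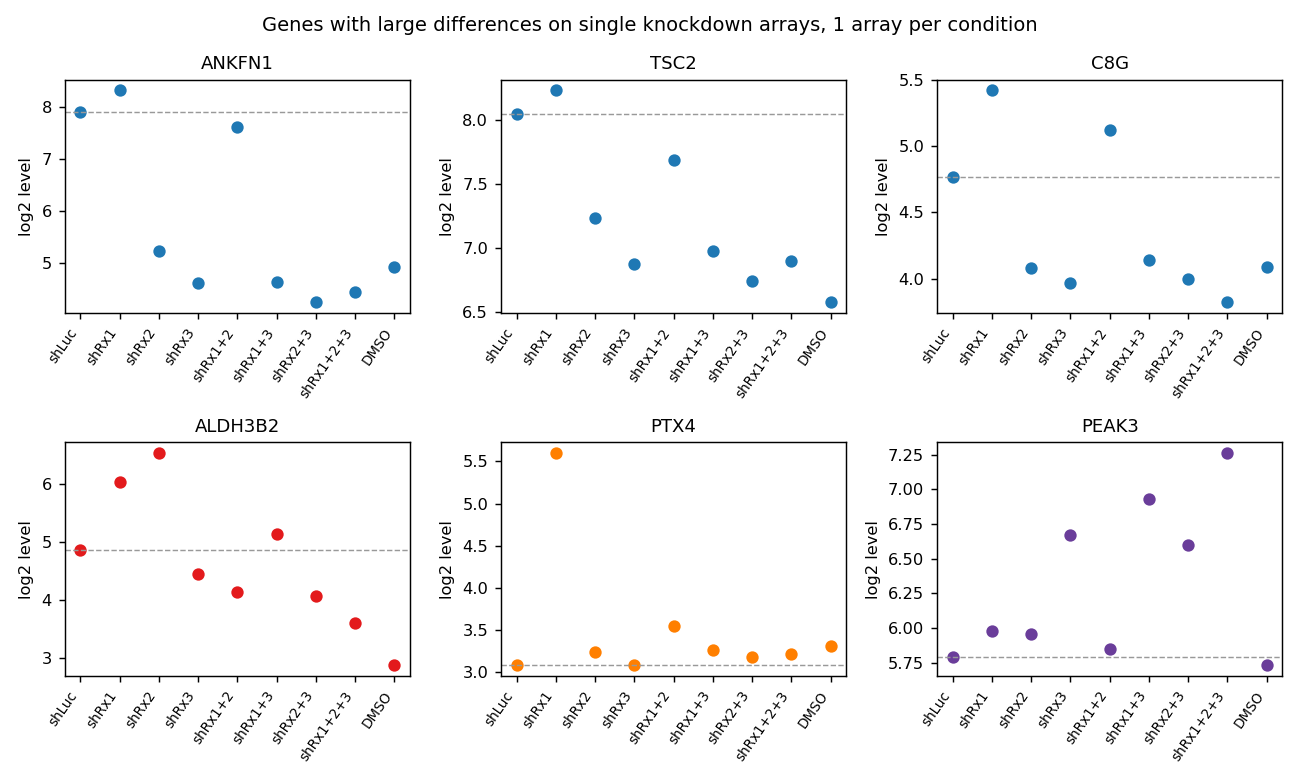
Log2 level of 6 genes on the 8 shRNA arrays, shLuc among them, and DMSO. Each point is 1 array, the axes do not start at 0 and the dashed line is shLuc. ANKFN1, TSC2 and C8G are high on shLuc, shRx1 and shRx1+shRx2, PTX4 is high on shRx1 alone (5.60), and PEAK3 is high on the 4 arrays with shRx3.

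Gene lists of pathways and cell types, 25 in all, gave few members that moved. Of the 327 genes on them that were tested, 16 (4.89%) moved on at least 1 single knockdown, against the 4.19% of all genes. None of the 327 moved on all 3. Of 12 RUNX factors and partners 0 moved on any single knockdown, with medians of -0.05 on shRx1, 0.0037 on shRx2 and -0.07 on shRx3.

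Cholesterol and fatty acid synthesis genes lay slightly lower on each array. The list of 19 had a median difference of -0.14 on shRx1, -0.23 on shRx2 and -0.27 on shRx3, where the median of all genes was -0.0025, -0.0038 and -0.0037. Of the 19, 13 were below shLuc on all 3 arrays, as were 25.8% of all genes, and on DMSO the median was -0.22. MSMO1, a demethylating enzyme of late sterol synthesis, read 7.32 on shLuc, 6.91 on shRx1, 6.68 on shRx2 and 6.74 on shRx3, and was the 1 member past 1.5-fold, on shRx2. MVD, of the mevalonate pathway, read 6.55 on shLuc and 6.27, 6.20 and 6.07, and INSIG1, the sterol sensor that holds back SREBP, 8.29 and 7.86, 7.96 and 7.99. The desaturase SCD read 9.14 and 8.91, 8.85 and 9.07. The highest members by mean difference lay near shLuc, DHCR7 at 5.97 and 6.09, 5.89 and 5.97, and FDPS at 5.89 and 5.91, 5.82 and 5.97.

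Most cell cycle genes lay slightly below shLuc on shRx1 and shRx2, and fewer did on shRx3. On DMSO the median difference from shLuc was -0.39 over the S phase list and -0.16 over the G2 and mitosis list. Over 28 S phase genes the median was -0.18 on shRx1, -0.06 on shRx2 and -0.0043 on shRx3, and UHRF1 was the 1 member that moved. Of the 28, 26 read below shLuc on shRx1, 19 on shRx2 and 15 on shRx3, where 6230, 6317 and 6287 of all 12327 genes did. Over 27 G2 and mitosis genes it was -0.08, -0.18 and -0.08, and 0 members were past 1.5-fold. Of the 27, 22 read below shLuc on shRx1, 27 on shRx2 and 20 on shRx3, and 17 on all 3 (25.8% of all genes), against the 1 shared control. CENPF, a kinetochore protein, read 9.13 on shLuc, 8.81 on shRx1, 8.81 on shRx2 and 8.65 on shRx3. CCNB2, a mitotic cyclin, read 8.33, 8.12, 7.99 and 8.02.

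Myeloid genes were mixed. Over 18 RUNX-regulated myeloid genes the median was -0.02 on shRx1, 0.06 on shRx2 and 0.01 on shRx3, and the 1 member that moved was NFE2, a bZIP factor of platelet and myeloid maturation, at 3.88 on shLuc and 3.16 on shRx1. SPI1, which encodes the myeloid factor PU.1, read 8.59 on shLuc and 8.60, 8.67 and 8.62. Over 13 monocyte and macrophage genes the median was 0.13, 0.24 and -0.05. CD68, a lysosomal glycoprotein, read 9.29 on shLuc, 9.92 on shRx1, 9.87 on shRx2 and 9.67 on shRx3. It was past 1.5-fold on shRx1, and DMSO read 9.88. The integrin subunit ITGAX read 3.23, 3.91, 3.90 and 3.50, past 1.5-fold on shRx1 and shRx2, and 5.28 on DMSO. In the KMT2A-fusion list of 13 none moved, and MEIS1, the homeobox partner of HOXA9, read 6.50 on shLuc and 6.22, 6.24 and 6.18.

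Signalling lists had members that moved on 1 array. Of all genes tested, 4.19% moved on at least 1 single knockdown, 1.22% lower on shRx1 and 0.86% lower on shRx3. Of 16 immediate early genes, 3 moved, all lower on shRx3. On that array 9 of the 16 read below shLuc, where 6287 of all 12327 genes did. EGR1 read 7.03 on shLuc, 6.53 on shRx1, 6.56 on shRx2 and 6.18 on shRx3. The AP-1 member FOSB read 5.53, 5.04, 5.26 and 4.85, and the zinc finger factor KLF6 6.00, 5.60, 5.73 and 5.28. All 3 read below shLuc on the other single knockdowns too, and on DMSO (6.16, 4.84 and 5.75). FOSL1 lay the other way on shRx3, at 7.59 against 7.08 on shLuc. Of 13 NF-kB and inflammatory genes, 2 moved, lower on shRx1. The cytokine TNF read 7.75, 7.04, 7.41 and 7.60, and TNFAIP3, a brake on NF-kB, 6.25, 5.57, 6.23 and 6.13. Of 15 interferon-stimulated genes, IFI6 moved on shRx2, at 6.10 against 5.45, while USP18, which limits interferon signalling, read 6.08 on shLuc and 5.56, 5.60 and 5.53. The ATF4 list of 19 had 3 that moved, the stress-induced mTORC1 inhibitor DDIT4 (4.34 on shLuc, 5.09 on shRx1), the cystine transporter SLC7A11 (6.16 and 5.48 on shRx1) and the folate enzyme ALDH1L2 (7.02 and 6.33 on shRx2). In the NRF2 list of 17, 1 member moved lower on shRx1 and 1 lower on shRx2. The latter was malic enzyme ME1, at 4.68 on shLuc, 5.22 on shRx1, 3.76 on shRx2 and 4.55 on shRx3. The quinone reductase NQO1 read 8.69, 8.39, 8.31 and 8.18.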

How the data were processed

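The deposited table held 53617 transcript clusters on 11 arrays, 1 column per sample (0 columns were not mapped). The authors deposited log2 values. RMA, Transcriptome Analysis Console 1.0 and Affymetrix Expression Console 1.3.1 are the tools named in the submitters' processing notes, without an order. For the probe annotation no genome build is named in the labels or the table. No measure of signal against background was used, and precision is limited by how few arrays there are.

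One gene symbol was listed for 23871 clusters, several for 1842 and none for 27904. RefSeq (GRCh38.p14) matched 22569 and updated 87 symbols. For 631 of the 22395 genes with several clusters, the one with the highest mean was used. Genes with a level of at least 3.78, the median of the values with 1 symbol, on any array were tested. Differences from shLuc were counted at 1.5-fold, and fits used limma 3.58.1 in R 4.3.3 with Benjamini-Hochberg adjustment over the 12327 genes, checked on simulated data. Tables and plots were made with Python 3.11.15, pandas 2.3.3 and matplotlib 3.10.9. Nothing in the labels says that arrays are separate cultures, so a p-value reflects array-to-array spread, possibly technical.

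The arrays, gene lists and rules were chosen with earlier results of these data known, including those of PEAK3 and SLC39A9 with the RUNX3 shRNA. Named genes are the RUNX genes and CBFB, up to 12 per direction that moved on all 3 arrays, up to 8 per direction that moved on one, the 5 of smallest p, genes past 2-fold and the outer members of lists. Small RNAs and genes named otherwise were chosen after their values were seen. Alternatives were other folds, filters, scalings and controls, and leaving out each array.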

Additional observations from a re-analysis of the deposited data

Results flagged for a closer look

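Apart from the cluster listed for RUNX1 and LOC100506403, clusters without a single gene symbol were used in no comparison. Of the 10342 at the level filter, 304 (2.94%) moved by at least 1.5-fold in the same direction on all 3 single knockdowns, 107 higher and 197 lower. The share of named genes was 0.219%, but the 2 are not like for like. Each named gene is read by 1 chosen cluster, and 86.5% of the named genes are protein-coding. Of the 1664 named genes that are not protein-coding, 17 moved on all 3.

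Of the genes tested, 2 moved in opposite directions, and their difference between arrays was not tested. C8G lay 0.65 above shLuc on shRx1 and at -0.69 and -0.80 relative to it on shRx2 and shRx3. GH2, a growth hormone gene with near-identical neighbours, lay at 0.73 on shRx1 and -0.67 on shRx2.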

How the results depend on the processing

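No paired analysis was possible because every sample carries the same replicate number and each condition has 1 array. The 27 genes that moved on all 3 arrays (14 higher, 13 lower) became 4 (2 and 2) at 2-fold, 144 (81 and 63) at 1.3-fold, 54 (25 and 29) without the level filter, 7 (7 and 0) with the filter raised by 1, 10 (8 and 2) among protein-coding genes, and 9 (7 and 2) where all 4 arrays had to reach the filter, an alternative chosen after seeing the data. With DMSO in place of shLuc they were 308 (134 and 174), which included 2 of the 14 and 0 of the 13. Leaving out 1 single knockdown gave 44 to 63 genes, 19 to 36 higher and 25 to 27 lower. The 132 genes that moved on 1 array only (73 on shRx1, 26 on shRx2, 33 on shRx3) became 8 (4, 3 and 1) at 2-fold, 817 (388, 202 and 227) at 1.3-fold, 256 (133, 59 and 64) without the filter, 46 (30, 6 and 10) with it raised, 83 (48, 14 and 21) among protein-coding genes, 81 (49, 13 and 19) at the filter on all 4 arrays, and 406 (191, 105 and 110) where the other arrays had only to stay under 1.5-fold. Relative to DMSO the mean difference reversed for FBP1 (-0.53), ZNF528 (-0.24), SEMA6B (-0.0219), STEEP1 (-0.13), IGSF8 (-0.0044) and RACGAP1 (0.17). The cause was not tested. Limma called 0 genes under all alternatives run, among them median centring, quantile scaling and trend.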

Other observations

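A further 10 lists, of stress responses, granule genes and housekeeping functions, had no member that moved by 1.5-fold on a single knockdown. Over 15 genes of the unfolded protein response the median difference was 0.0014 on shRx1, -0.03 on shRx2 and 0.05 on shRx3, and over 8 heat shock genes it was 0.02, -0.07 and 0.05. On DMSO these lists lay higher, at 0.47 and 0.39. Over 19 p53 targets the median was -0.14, 0.07 and 0.01, over 15 hypoxia and glycolysis genes 0.0098, 0.0036 and 0.14, and over 12 apoptosis regulators -0.03, 0.08 and 0.0061. Over 12 genes of double-stranded RNA sensing it was 0.01, 0.09 and 0.05. Azurophil granule genes, 10 in all, had medians of 0.18, 0.07 and 0.09, with 7 above shLuc on all 3 arrays, as were 22.4% of all genes. Over 7 replication-dependent histones the median was -0.01, 0.09 and 0.11, over 13 ribosomal proteins -0.02, 0 and 0.0050, and over 14 housekeeping genes -0.04, -0.06 and -0.06. All of these values share the 1 shLuc array.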
